A study of Mus musculus with 8 samples.

Results

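The genes described here are 10 genes expressed by fibroblasts of the leptomeninges, the thin membranes that cover the brain: the fibrillar collagen genes *Col1a1*, *Col1a2* and *Col3a1*, the proteoglycan genes *Dcn* and *Lum*, the growth factor gene *Igf2*, the transporter gene *Slc6a13*, the enzyme genes *Aldh1a2* and *Ptgds*, and the transcription factor gene *Foxc1*. They were listed by name, matched by Ensembl identifier, and are 10 of the 55890 genes in the count table. Each name matched 1 identifier, and all 10 were among the 18637 genes with enough counts to be tested.

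Hypothalamic RNA was taken from female mice at 16 weeks of age and sequenced as 8 pools of 2 animals each, after selection of polyadenylated RNA. The 4 POMC-C451Af/f pools came from mice that carry a POMC-Cre transgene together with the floxed mutant alleles of *Esr1* (C451Af/f), the gene of estrogen receptor alpha. Cre is driven by the POMC promoter, so the mutated receptor is made in cells in which that promoter has been active. By the study's methods the 4 control pools came from littermates homozygous for C451Af/f, which carry the floxed alleles too; their labels say wildtype. RNA was pooled randomly in pairs within a genotype. The comparison addresses which hypothalamic transcripts differ between these genotypes. Total estimated counts were 40498166, 36651880, 36095253 and 36564223 in POMC-C451Af/f replicates 1 to 4. The controls had 39692314, 43755502, 48942116 and 37841365. *Esr1* was counted in every pool, at 11.6, 12.2, 9.997 and 10.8 CPM in POMC-C451Af/f replicates 1 to 4, where CPM is the count divided by the normalized library size, times 1e+06. Control replicates 1 to 4 had 12.3, 12.8, 11.6 and 16.0 CPM. The mutated and the intact transcript are counted together, so these values do not check the genotype.

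The leptomeninges consist of the pia mater on the brain surface and the arachnoid above it, with cerebrospinal fluid between them. Their fibroblasts lay down a collagen matrix, form part of the barrier between fluid and blood, carry transporters for organic ions and neurotransmitters, and release signals such as retinoic acid and insulin-like growth factor 2 to the brain beneath.

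Other markers of meningeal fibroblasts were present in the same pools. Of 14 such genes, 13 passed the filter, and *Slc6a20a*, an amino acid transporter, had the highest mean CPM of the list. The summed level of these 14 genes was 83.4, 155.1, 64.5 and 68.1 CPM in POMC-C451Af/f replicates 1 to 4. Control replicates 1 to 4 had 142.2, 88.9, 155.9 and 59.4 CPM. The gene that did not pass the filter, *Slc22a2*, had at most 34.1 estimated counts in a pool. Markers of the labelled tissue were all present: the 12 genes of hypothalamic neurons passed the filter, led by *Pmch*, and their summed level was between 902 and 1761 CPM.

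Per kilobase of the longest transcript in GENCODE M21, *Ptgds* had the highest level of the 10 genes, at 431 ± 266.0 CPM per kb (SD, n = 8 pools), far above the rest. *Igf2* followed at 13.5 ± 7.43 CPM per kb (SD, n = 8 pools). The other 8 lay between 5.09 ± 1.57 CPM per kb for *Col1a2* and 0.898 ± 0.290 CPM per kb for *Lum* (SD, n = 8 pools), with *Slc6a13*, *Dcn*, *Aldh1a2*, *Col1a1*, *Foxc1* and *Col3a1* between them in that order. Neighbours in this order differed by more than the larger of their SDs only between *Ptgds* and *Igf2*, between *Igf2* and *Col1a2*, and between *Col1a1* (1.91 ± 0.430 CPM per kb) and *Foxc1* (1.08 ± 0.258 CPM per kb). *Slc6a13* and *Dcn*, at 3.78 ± 2.41 and 3.72 ± 1.04 CPM per kb, were nearly level. The lowest estimated count of a member in any pool was 48.0, for *Lum*, and the highest was 54004, for *Ptgds*. The members lie on 8 chromosomes of GRCm38. Only *Dcn* (chromosome 10, 97479609 to 97518143) and *Lum* (97565128 to 97572703), both on the plus strand, and *Col1a2* and *Slc6a13* on chromosome 6, share a chromosome.

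The windows around transcription starts in RefSeq (GRCm38.p6), from 250 bases before to 50 bases after each start, were found for 7 of the 10 members, with 12 windows in all; *Col1a1*, *Dcn* and *Lum* had no window. Because the members varied together over the pools, as described further on, 4 of the windows are printed for a collagen, a transporter, an enzyme and a transcription factor among them, 5′ to 3′ on the plus strand and only as far as no annotated exon of GENCODE M21 begins. Capitals mark matches on either strand to CCAAT (the CCAAT box), to TATAAA (the TATA box), to GGGCGG (the GC box), to the forkhead core GTAAACA or to the nuclear receptor core AGGTCA. The stretches are chr1:45311288-45311537 for *Col3a1*, chr6:121300038-121300226 for *Slc6a13*, chr9:71215539-71215788 for *Aldh1a2* and chr13:31806396-31806632 for *Foxc1*.
Col3a1: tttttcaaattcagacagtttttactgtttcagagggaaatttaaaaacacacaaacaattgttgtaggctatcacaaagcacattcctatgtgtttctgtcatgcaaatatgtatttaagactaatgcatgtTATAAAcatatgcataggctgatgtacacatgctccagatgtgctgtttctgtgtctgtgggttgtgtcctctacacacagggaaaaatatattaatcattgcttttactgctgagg
Slc6a13: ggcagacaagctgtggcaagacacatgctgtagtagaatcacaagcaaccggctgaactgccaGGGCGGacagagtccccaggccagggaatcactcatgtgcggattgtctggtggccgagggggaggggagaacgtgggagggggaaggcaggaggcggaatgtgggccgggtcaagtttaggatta
Aldh1a2: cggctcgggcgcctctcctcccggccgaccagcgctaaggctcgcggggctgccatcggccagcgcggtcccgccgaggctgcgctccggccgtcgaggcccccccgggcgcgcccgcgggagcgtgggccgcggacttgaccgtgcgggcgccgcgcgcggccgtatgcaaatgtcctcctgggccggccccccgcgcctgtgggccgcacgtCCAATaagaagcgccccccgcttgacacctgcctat
Foxc1: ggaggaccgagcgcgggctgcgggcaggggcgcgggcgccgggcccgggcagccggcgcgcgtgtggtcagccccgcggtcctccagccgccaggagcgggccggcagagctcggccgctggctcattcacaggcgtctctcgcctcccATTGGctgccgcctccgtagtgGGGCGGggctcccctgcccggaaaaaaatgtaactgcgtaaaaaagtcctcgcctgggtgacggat

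In these stretches *Col3a1* had TATAAA at -117 from its start, *Slc6a13* had GGGCGG at -187, *Aldh1a2* had CCAAT at -36, and *Foxc1* had CCAAT at -101 and GGGCGG at -79. Over the whole windows, CCAAT was found in 6 of the 12 windows of the members and in 37.4% of the 32851 windows of the table, GGGCGG in 5 of 12 and 35.7%, AGGTCA in 2 of 12 and 16.3%, and TATAAA in 1 of 12 and 13.6%. GTAAACA was in 0 of the 12 windows and in 3.65% of all windows. No motif of these was in every member, and a match of letters does not show that a factor binds.

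*Col1a1* and *Col1a2* encode the chains of type I collagen and *Col3a1* the chain of type III collagen, which together make up the fibers of the meninges. *Col1a2* was counted at 24.6, 36.1, 19.2 and 19.7 CPM in POMC-C451Af/f replicates 1 to 4 and at 40.02, 25.6, 33.9 and 18.6 CPM in control replicates 1 to 4. Its highest values were in POMC-C451Af/f replicate 2 and control replicates 1 and 3, and the genotypes overlapped over nearly the whole range. *Col1a1* had 10.7, 15.02, 9.24 and 9.73 CPM in the POMC-C451Af/f pools and 13.1, 10.7, 14.2 and 7.76 CPM in the controls, with the same 3 pools on top. For *Col3a1* the values were 4.25, 8.14, 3.005 and 4.12 CPM in the POMC-C451Af/f pools and 6.55, 4.42, 6.57 and 3.23 CPM in the controls, so that its highest pool was a POMC-C451Af/f pool and its lowest pools came from both genotypes.

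*Dcn* and *Lum* encode decorin and lumican, small leucine-rich proteoglycans that bind collagen fibrils. *Dcn* ranged from 12.6 to 22.8 CPM in the POMC-C451Af/f pools and from 12.9 to 24.6 CPM in the controls. *Lum* ranged from 1.77 to 2.79 CPM and from 1.1002 to 3.07 CPM. Both had their 3 highest values in the same 3 pools as the collagens, but control replicate 2 was lowest for *Lum* and next to lowest for *Dcn*, at 1.1002 and 12.9 CPM, while it was in the middle for the collagens.

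*Ptgds* encodes the lipocalin-type synthase of prostaglandin D2, which the arachnoid secretes into the cerebrospinal fluid. It was counted at 366, 974, 283 and 280.3 CPM in POMC-C451Af/f replicates 1 to 4 and at 869, 463, 1104 and 232 CPM in control replicates 1 to 4. *Slc6a13* encodes a transporter of GABA and taurine, and *Igf2* an imprinted growth factor. *Slc6a13* had 5.43, 13.9, 3.88 and 4.45 CPM in the POMC-C451Af/f pools and 12.98, 6.78, 17.04 and 3.02 CPM in the controls. *Igf2* had 45.2, 103.5, 37.6 and 36.8 CPM and 92.4, 47.7, 118.8 and 29.6 CPM, respectively. For all of these genes 3 pools, POMC-C451Af/f replicate 2 and control replicates 1 and 3, lay above the other 5, and control replicate 4 was lowest.

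*Aldh1a2* encodes the enzyme that makes retinoic acid from retinal in meningeal fibroblasts. Its level was 4.72, 9.91, 2.13 and 3.48 CPM in POMC-C451Af/f replicates 1 to 4. The controls had 10.9, 4.08, 12.2 and 2.07 CPM. *Foxc1* encodes a forkhead transcription factor that the meninges need to form. It varied less, between 4.52 and 7.95 CPM in the POMC-C451Af/f pools and between 4.90 and 8.53 CPM in the controls. In both genes the 3 highest pools were again the same, and the groups overlapped.

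**Figure D1:**
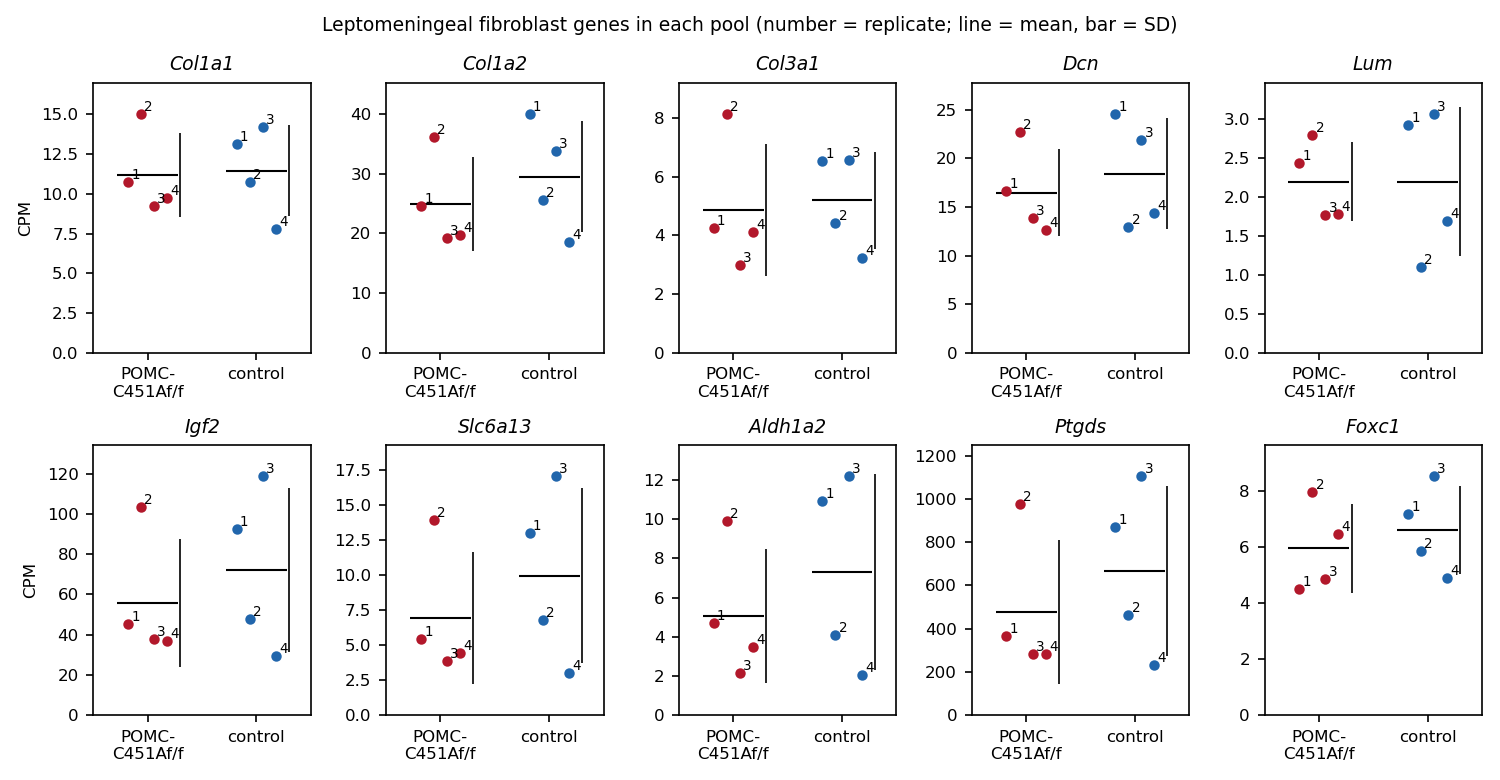
Normalized counts (CPM, y axis) of the 10 genes in each of the 8 pools, by genotype (x axis); points are pools with their replicate number, lines are means and bars SD of 4 pools. In every gene, POMC-C451Af/f replicate 2 and control replicates 1 and 3 are the highest, and the genotypes overlap.

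None of the 10 members was called between the genotypes. In edgeR's quasi-likelihood test, adjusted over all 18637 tested genes by the Benjamini-Hochberg method, 0 of 10 passed an FDR of 0.05 with an absolute log2 fold change over 0.5, against 0.0215% of all tested genes. At an unadjusted p under 0.05 there were 0 of 10, against 5.1% of all tested genes, and DESeq2 called 0 as well. The genotypes overlapped in all 10, while 2.78% of tested genes did not overlap. In bulk tissue, fewer cells of a type and less RNA per cell cannot be told apart, so each value is a level of the tissue.

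The log2 fold change of POMC-C451Af/f over control was below 0 in all 10 members, with a median of -0.21, beside 0.00085 over all tested genes, of which 49.6% were below 0. *Ptgds* was at 476 ± 334 CPM in POMC-C451Af/f pools and 667 ± 393 CPM in controls (SD, n = 4 pools each), which is -0.49 as a log2 fold change (standard error 0.498, adjusted p = 0.9004 by edgeR). *Slc6a13* was at 6.92 ± 4.71 and 9.95 ± 6.26 CPM (SD, n = 4 pools each), with a log2 fold change of -0.53 (standard error 0.511, adjusted p = 0.894 in edgeR's test). *Aldh1a2* had -0.54 (standard error 0.551) and *Igf2* had -0.37 (standard error 0.436) on the same scale. *Col1a2*, *Dcn* and *Foxc1* had log2 fold changes of -0.25, -0.16 and -0.16, and *Col1a1*, *Col3a1* and *Lum* of -0.04, -0.09 and -0.0026, each smaller than or close to its standard error. The sign was the same with size factors of DESeq2 and with total counts, but *Lum* turned to 0.057 with the replicate number as a block, and *Col1a1*, *Col3a1*, *Dcn* and *Lum* turned with 1 pool left out. These genes varied together, so the shared sign is not 10 separate observations. Without POMC-C451Af/f replicate 2 the log2 fold change of *Ptgds* was -1.11 (adjusted p = 0.494 in edgeR's test) and that of *Slc6a13* was -1.13 (adjusted p = 0.519), and without control replicate 3 they were -0.13 and -0.14, so that single pools decide their size.

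**Figure D2:**
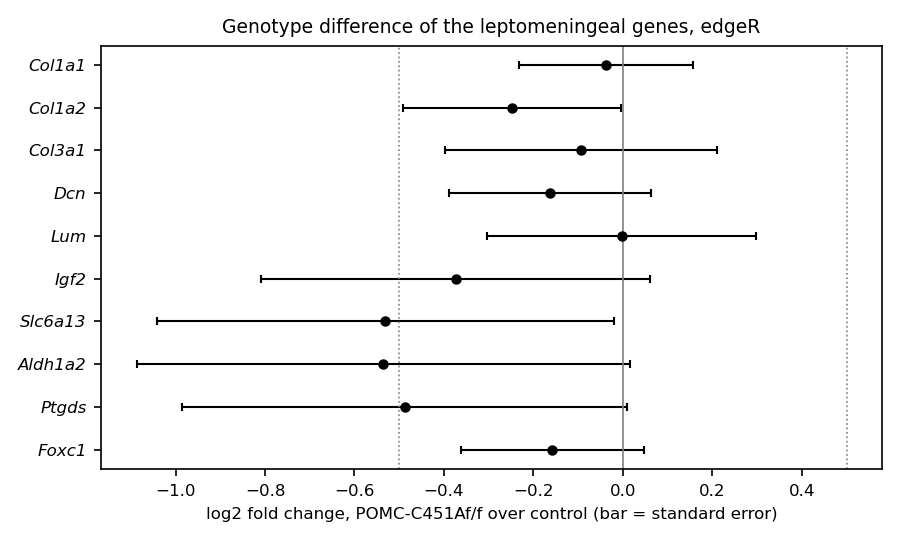
Log2 fold change of POMC-C451Af/f over control (x axis) for the 10 genes (y axis), with standard errors as bars and dotted lines at 0.5 on either side of 0. The estimates run from -0.54 to -0.0026, and 8 of the 10 bars reach 0.

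The difference between pools was larger than that between genotypes. The 3 highest pools were POMC-C451Af/f replicate 2 and control replicates 1 and 3 in 10 of 10 members, and 5.09% of all tested genes had these 3 pools on top. The 3 lowest were POMC-C451Af/f replicates 3 and 4 and control replicate 4 in 7 of 10 members, beside 4.79% of all tested genes. Between these ends the pools formed a range: on the log2 scale the widest gap between neighbouring pools took between 0.281 of the range for *Foxc1* and 0.477 for *Igf2*. Both sets of 3 pools were named after the levels of the members were seen, so their counts among the members are descriptions, not tests.

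The members differed in how far they varied. The highest pool was 5.90 times the lowest for *Aldh1a2*, 5.64 times for *Slc6a13*, 4.77 times for *Ptgds* and 4.01 times for *Igf2*. For *Lum*, *Col3a1* and *Col1a2* the ratio was 2.79, 2.71 and 2.15, and for *Dcn*, *Col1a1* and *Foxc1* it was 1.95, 1.94 and 1.89. The median ratio of the 14056 tested genes with at least the mean CPM of *Lum* was 1.19, and between 0.27% of these genes, for *Aldh1a2*, and 3.05%, for *Foxc1*, had a larger ratio than the member. These shares are descriptions of the 8 libraries.

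All 45 pairs of members were positively correlated over the 8 pools. For log2(CPM + 0.5), Pearson's r was between 0.546 and 0.997 with a median of 0.899, and 38 of 45 pairs passed at 0.05 in the two-sided exact permutation test after Benjamini-Hochberg adjustment over the 45 pairs; 22 passed by Spearman's rho. Without the 2 pools farthest from the median of the first gene of a pair, r stayed above 0 in 45 of 45 pairs, between 0.5002 and 0.993. Taken as deviations from the genotype means, r was between 0.583 and 0.997. The labels name no batch within which these relations could be computed again.

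By r the highest pair was *Slc6a13* with *Ptgds*, with r = 0.997 (exact permutation p = 4.96e-05, adjusted p = 0.000744), rho = 0.976 (exact permutation p = 0.000397, adjusted p = 0.00357) and r = 0.993 without POMC-C451Af/f replicate 2 and control replicate 3. As deviations from the genotype means its r was 0.9965. *Igf2* and *Ptgds* had the highest rho, 1 (exact permutation p = 4.96e-05, adjusted p = 0.00223), and r = 0.994 (exact permutation p = 2.48e-05, the smallest that 40320 permutations can give, adjusted p = 0.000744), with r = 0.9875 without the same 2 pools and 0.9956 as deviations. *Col1a1* and *Col3a1* had r = 0.957 (exact permutation p = 0.000422, adjusted p = 0.00223), rho = 0.976 (exact permutation p = 0.000397, adjusted p = 0.00357), r = 0.963 without 2 pools and r = 0.961 as deviations. *Dcn* and *Lum*, the neighbours on chromosome 10, had r = 0.895 (exact permutation p = 0.00377, adjusted p = 0.00771) and rho = 0.762 (exact permutation p = 0.0368, adjusted p = 0.0636), so that this pair passed by r only; r was 0.877 without 2 pools and 0.931 as deviations. The 7 pairs that did not pass by r held *Lum* in 6 cases, and *Dcn* with *Foxc1* in the other. *Lum* with *Foxc1* had the lowest r, 0.546 (exact permutation p = 0.158, adjusted p = 0.158), with rho = 0.643 (exact permutation p = 0.0962, adjusted p = 0.101), r = 0.583 without 2 pools and r = 0.583 as deviations. *Lum* had the fewest counts of the members.

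**Figure D3:**
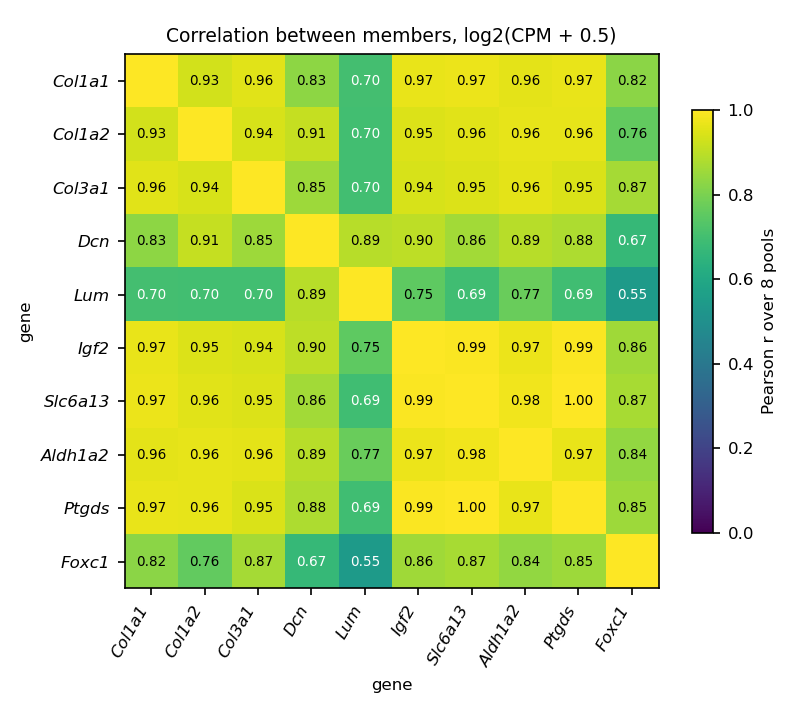
Pearson's r between members over the 8 pools, on log2(CPM + 0.5), as a matrix of genes (both axes) with the value in each cell and its color from 0 to 1. *Lum* and *Foxc1* show the lowest values, down to 0.55, and *Ptgds*, *Slc6a13* and *Igf2* the highest.

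Ratios between members within a pool showed which of them kept a fixed proportion. The level of *Ptgds* over that of *Slc6a13* was between 63.0 and 76.8 in the 8 pools, a range of 1.22 times, while each gene alone varied over 4 times. *Ptgds* over *Igf2* was between 7.53 and 9.72. *Col1a2* over *Col1a1* was between 2.02 and 3.05, with 2.39 as the median and the highest ratio in control replicate 1. In contrast, *Ptgds* over *Col1a1* was between 28.8 in POMC-C451Af/f replicate 4 and 77.8 in control replicate 3. *Ptgds*, *Slc6a13* and *Igf2* thus kept near one proportion, and the type I collagen genes changed less from pool to pool than they did.

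Outside the members, the 10 tested genes with the highest Pearson r with the mean z-scaled level of the members over the 8 pools had r between 0.983 and 0.991. They were *Wnt6*, a Wnt ligand; *Slc22a6*, an organic anion transporter; *Aebp1*, a secreted protein that binds collagen; *Gjb2*, the gap junction protein connexin 26; *Slc13a3*, a dicarboxylate transporter; *Itih2*, a carrier of hyaluronan; *Mpzl2*, an adhesion protein; *Prdm6* and *Hcar1*, the lactate receptor; and a gene without a symbol here (ENSMUSG00000121042.1). *Slc22a6* was counted at 1.68, 8.92, 0.870 and 1.20 CPM in the POMC-C451Af/f pools and at 8.51, 2.11, 10.1 and 0.291 CPM in the controls. *Aebp1* was at 21.6, 39.1, 18.5 and 18.2 CPM and at 39.6, 23.6, 41.2 and 16.8 CPM. Both had the same 3 highest pools as the members. In all, 72 of the 18637 tested genes had an r over 0.95 and 180 an r over 0.9, beside a median of 0.0018 over all tested genes.

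Besides the members, 17 lists of related genes and of other cell types were read, with 137 tested genes. In these, edgeR called 0, against 0.0215% of all tested genes, and DESeq2 called 0. By edgeR 10 of the 137 had an unadjusted p under 0.05, where 5.1% of all tested genes did. DESeq2 gave 12, and its share over all genes is not reported here. In the list of other meningeal markers, 0 of 13 had such a p by either tool and 11 of 13 had a log2 fold change below 0, with a median of -0.22. *Slc13a4*, a sulfate transporter, had the lowest, at -0.86 (standard error 0.747), and *Cemip*, a hyaluronan-degrading protein, the highest, at 0.02. The r with the member mean was over 0.9 in 9 of the 13, with a median of 0.963, and the same 3 pools were highest in 10 of 13. *Cemip* (r = -0.28), *Dpp4* (0.496) and *S100a6* (0.660) followed the members least.

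**Figure D4:**
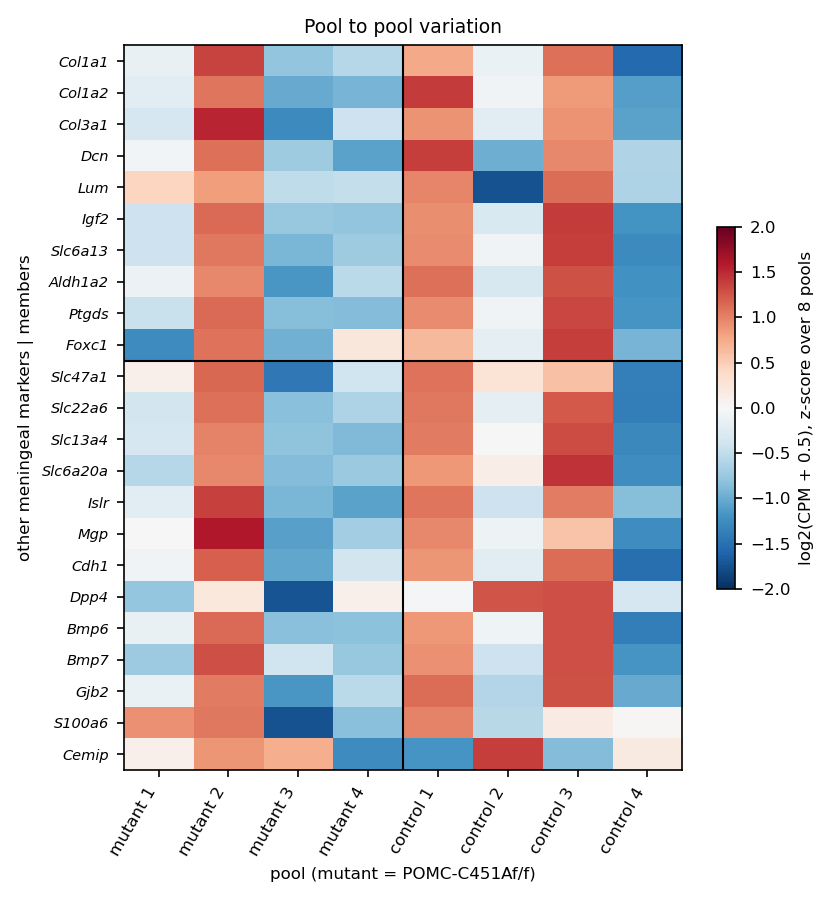
Levels of the members and other meningeal markers (y axis) in the 8 pools (x axis) as z-scores of log2(CPM + 0.5) over the pools, from blue (low) to red (high). The members and most meningeal markers are high in POMC-C451Af/f replicate 2 and control replicates 1 and 3, and *Cemip* and *Dpp4* differ most from this order.

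Among 16 collagens and matrix partners, all tested, 0 were called and 12 had a log2 fold change below 0, with a median of -0.09; *Sparc*, which binds collagen, had the highest mean CPM. *Col5a2*, a chain of type V collagen, was at 10.3 ± 1.02 CPM in POMC-C451Af/f pools and 12.5 ± 0.510 CPM in controls (SD, n = 4 pools each), or -0.28 as a log2 fold change (standard error 0.0763, adjusted p = 0.878 by edgeR). It did not follow the members closely (r = 0.522). *Pcolce*, which aids the processing of procollagen, had the lowest log2 fold change, -0.36, and the highest r with the members in this list, 0.961; *Lox*, the collagen cross-linking enzyme, had the highest log2 fold change, 0.35.

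Of 8 other small leucine-rich proteoglycans, 7 were tested, 0 were called, and all 7 had a log2 fold change below 0, with a median of -0.47. *Prelp* had the highest mean CPM, *Bgn* (biglycan) the highest log2 fold change, -0.014, and *Omd* (osteomodulin) the lowest, -1.02 (standard error 0.676). *Kera*, the keratan sulfate proteoglycan of the cornea, had 0 counts in every pool. Except for *Aspn* (r = -0.21) the tested genes had an r with the members of 0.820 or more, 5 of them over 0.9.

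The retinoid list separated the meningeal enzyme from the rest of its pathway. None of its 12 genes was called; 8 had a log2 fold change above 0, with a median of 0.03. *Aldh1a1*, another enzyme of retinoic acid synthesis, was at 108 ± 28.4 CPM in POMC-C451Af/f pools and 77.1 ± 7.15 CPM in controls (SD, n = 4 pools each), or 0.48 as a log2 fold change (standard error 0.151, adjusted p = 0.878 by edgeR), and it ran against the members (r = -0.53). The binding protein *Crabp2* (r = 0.969) followed the members, whereas the receptors *Rara*, *Rarb* and *Rarg* had r of 0.5001, 0.05 and -0.23. *Crabp1* had the lowest log2 fold change of the list, -0.47.

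Of 10 genes of insulin-like growth factor signaling, 0 were called and 6 had a log2 fold change above 0, with a median of 0.05. *Igfbp5*, a binding protein, was at 268 ± 15.2 CPM in POMC-C451Af/f pools and 232 ± 5.66 CPM in controls (SD, n = 4 pools each), or 0.21 as a log2 fold change (standard error 0.0416, adjusted p = 0.451 by edgeR). Its r with the members was -0.32. *H19*, the imprinted neighbour of *Igf2*, was low, at 0.318 ± 0.125 and 0.230 ± 0.159 CPM, had the highest log2 fold change of the list, 0.46, and did not follow the members (r = 0.0052). *Igfbp2* had the lowest log2 fold change, -0.16, and *Igfbp6* (r = 0.971) was the gene of the list that followed the members most.

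The GABA transporter genes behaved differently from one another over the pools. *Slc6a12*, which takes up betaine and GABA, was counted at 1.60, 4.14, 0.505 and 0.946 CPM in the POMC-C451Af/f pools and at 4.69, 1.65, 6.24 and 0.450 CPM in the controls, and had an r of 0.981 with the members. *Slc6a11*, a transporter of astrocytes, varied little, at 963 ± 33.2 and 941 ± 10.7 CPM (SD, n = 4 pools each). Neither was called, with log2 fold changes of -0.86 for *Slc6a12* and 0.03 for *Slc6a11*.

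In the prostaglandin list, 6 of 7 genes were tested and 0 were called, with a median log2 fold change of -0.0077. *Ptges3* had the highest mean CPM, *Ptgs2* the highest log2 fold change, 0.23, and *Ptgdr*, a receptor of prostaglandin D2, the lowest, -0.21. *Ptgdr* had an r of 0.853 with the members and *Hpgds*, the other synthase of prostaglandin D2, one of -0.07. The transcription factors of meningeal and vascular mesenchyme were divided as well. Of 9 genes, 8 were tested, 0 were called, 5 had a log2 fold change above 0, and 4 had an r over 0.9 with the members, among them *Foxc2* (0.949) and *Osr1* (0.970). *Zic1* had the highest mean CPM and the highest log2 fold change of this list, 0.27, and ran against the members (r = -0.84), while *Osr1* had the lowest log2 fold change, -0.67. *Tcf21* had at most 5 counts in a pool.

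Markers of other cell types were read in the same pools, and their part in the variation of the members was not tested. The 6 genes of border-associated macrophages, which live in the meninges and around vessels, followed the members with r between 0.741 and 0.954, and the same 3 pools were highest in 5 of 6. Their summed level was 6.30, 12.3, 6.29 and 4.73 CPM in POMC-C451Af/f replicates 1 to 4. In the controls it was 10.9, 6.33, 12.2 and 4.77 CPM, with *Mrc1* as the most abundant and *Lyve1* at the lowest log2 fold change, -0.56. None of the 6 was called, and all had a log2 fold change below 0.

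Pericyte and smooth muscle genes followed in part. Of the 8, *Vtn* (r = 0.957), *Acta2* (0.904), *Pdgfrb* (0.822), *Tagln* (0.775) and *Myh11* (0.576) went with the members to differing degrees. *Rgs5* (0.06), the most abundant, *Kcnj8* (0.05) and *Abcc9* (-0.40) did not. The median r of the list was 0.676, and the same 3 pools were highest in 3 of 8. The summed level varied over 1.29 times, and log2 fold changes lay between -0.11 for *Vtn* and 0.14 for *Myh11*, with 0 calls. The 7 endothelial genes varied over 1.15 times in sum, with *Flt1* as the most abundant, a median r of 0.159, and 0 calls. *Tek*, a receptor of angiopoietins, had the highest log2 fold change, 0.22 (standard error 0.0783, unadjusted p under 0.05), and *Ly6c1* the lowest, -0.11.

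The 7 oligodendrocyte genes, led by *Mbp*, ran against the members, with r between -0.81 and -0.48. This list bears on *Ptgds*, which oligodendrocytes express as well. Their summed level was 5561, 5476, 6776 and 6191 CPM in POMC-C451Af/f replicates 1 to 4. In the controls it was 4690, 5576, 5626 and 5574 CPM, so that POMC-C451Af/f replicate 3 was highest and control replicate 1 lowest. None of these genes was called, all 7 had a log2 fold change above 0, from 0.12 for *Mal* to 0.27 for *Opalin*, and *Mog* and *Mag* had an unadjusted p under 0.05.

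Choroid plexus, which can also hold *Ptgds* and *Igf2*, was represented by 8 genes, of which 6 were tested and 0 called. *Ttr*, its most specific product, was at 2.22, 1.64, 7.47 and 4.37 CPM in POMC-C451Af/f replicates 1 to 4 and at 2.65, 3.44, 0.695 and 1.48 CPM in control replicates 1 to 4. It was highest in POMC-C451Af/f replicate 3 and lowest in control replicate 3, with an r of -0.57 with the member mean. *Kcne2* and *Slc4a5*, other defining markers, had at most 9 and 13 counts in a pool. *Clic6* had the highest mean CPM and an r of 0.02, and *Kl*, with an r of 0.930, was the exception; log2 fold changes ran from -0.19 for *Kl* to 0.92 for *Ttr* (standard error 0.520). The summed level of the list was between 33.2 and 40.8 CPM.

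Pituitary genes stood apart in 1 pool that was also high in the members. The summed level of the 8 genes, led by *Prl*, reached 1473 CPM in control replicate 1, while the other 7 pools had 34.5 to 244.7 CPM, and the median r with the members was 0.339. Without control replicate 1 the log2 fold changes of *Ptgds*, *Igf2* and *Col1a2* were -0.33, -0.24 and -0.07, while *Col1a1*, *Col3a1*, *Dcn* and *Lum* turned to 0.030, 0.033, 0.0032 and 0.159. Of the 6 tested genes 0 were called, and *Gh* had the lowest log2 fold change, -2.005.

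Ependymal and tanycyte genes, led by *Col23a1*, had a median r of -0.021 with the members, and 0 of 6 were called, with log2 fold changes from -0.19 for *Rax* to 0.27 for *Slc17a8*. Skeletal muscle genes were low, with a summed level of at most 5.27 CPM and *Acta1* as the most abundant. *Ckm* had at most 5 counts in a pool. Of the 4 tested 0 were called, with log2 fold changes from -0.36 for *Mylpf* to 0.30 for *Myh1*.

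Genes of hypothalamic neurons varied in part with the members. Of 12 genes 0 were called, all 12 had a log2 fold change below 0 with a median of -0.19, and the median r with the members was 0.706. The summed level was 1294, 1486, 902 and 1135 CPM in POMC-C451Af/f replicates 1 to 4. In the controls it was 1761, 1264, 1498 and 1224 CPM, and *Avp*, the gene of vasopressin, had the highest r, 0.8998. Its level was 165 ± 47.4 CPM in POMC-C451Af/f pools and 212 ± 48.5 CPM in controls (SD, n = 4 pools each). *Pomc*, which the pituitary expresses too, was at 98.9 CPM in control replicate 1, the pool with the highest summed level of pituitary genes, and at 49.7, 50.5 and 50.8 CPM in control replicates 2 to 4. The POMC-C451Af/f pools had 49.5, 50.2, 35.8 and 30.6 CPM. Over all pools it had the lowest log2 fold change of the list, -0.59 (standard error 0.237, adjusted p = 0.878 by edgeR), and *Sim1* the highest, -0.03. The part of pituitary RNA in the value of *Pomc* was not tested. *Pomc*, *Trh* and *Gal* had an unadjusted p under 0.05. The part of these neuronal levels in the variation of the members was not tested.

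**Figure D5:**
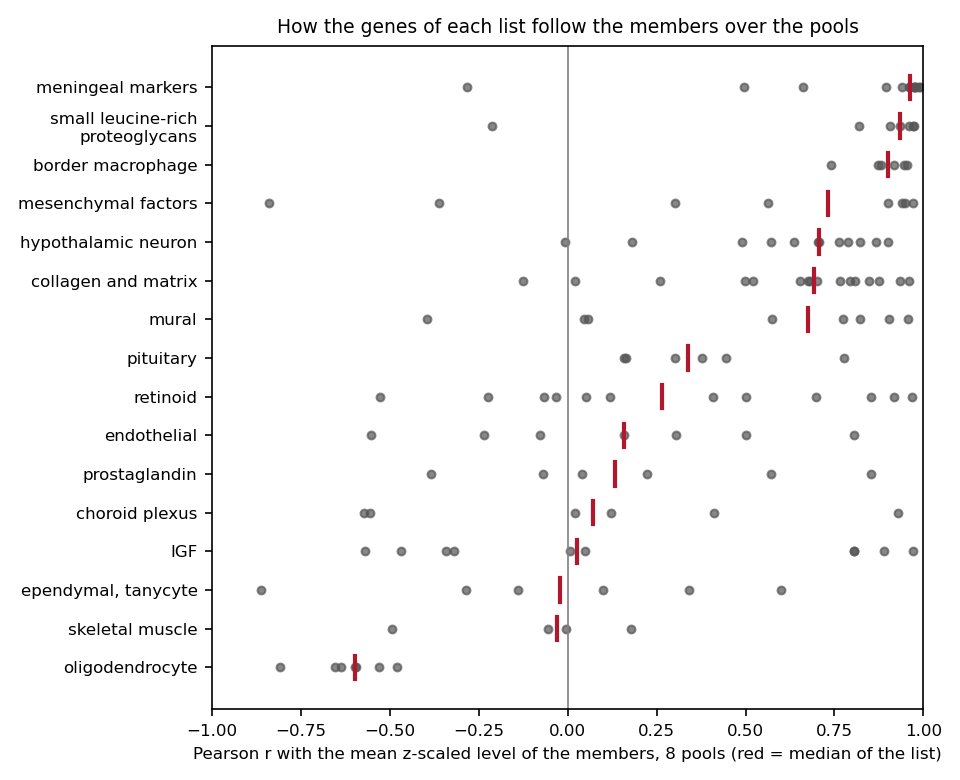
Pearson's r of each tested gene of the other lists, GABA transport left out, with the mean z-scaled level of the members over the 8 pools (x axis), by list (y axis); points are genes and red lines medians of the lists. Meningeal markers (median 0.963), proteoglycans (0.936) and border macrophage genes (0.899) are at the top, and oligodendrocyte genes (-0.60) at the bottom.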

How the data were processed

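RNA of 8 hypothalamic pools was sequenced, and the authors quantified reads with Salmon 1.10 (GRCm39, per the submitters' processing notes) and deposited estimated counts per gene, not normalized between pools. A deposited table of the authors' own comparisons (fold changes and p-values) was not used. Groups were taken from the sample labels. The estimated counts were rounded, and genes were kept by filterByExpr of edgeR 4.0.16 with a minimum count of 10 and a minimum total of 15. Genotype alone entered the quasi-likelihood fit (glmQLFit, glmQLFTest; R 4.3.3), on libraries scaled by TMM (factors 0.984 to 1.02). The standard error is the absolute log2 fold change divided by the square root of F. Correlations used log2(CPM + 0.5) and 40320 permutations. Positions are from GENCODE M21 on GRCm38, without conversion from GRCm39.

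Members and gene lists were chosen with earlier results of these data known. Named genes are the members; of every list the gene with the highest mean CPM, the highest and the lowest log2 fold change and any gene with an unadjusted p under 0.05; defining markers at or near 0; and the 10 genes most correlated with the mean of the members. Genes named outside this rule were chosen after their values were seen, and some genes of the lists are not reported here. The edgeR procedure was tested on simulated data. Any 2 pools differed by a chi-square of at least 4.39 per degree of freedom, above sampling noise, so all were kept as replicates. P-values measure the spread between pools of 2 animals. Alternatives were DESeq2 1.42.0, scaling by its size factors or by total counts, 2 other filters, the replicate number as a block, FDR alone, and each pool left out in turn.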

Additional observations from a re-analysis of the deposited data

Results flagged for a closer look

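In 20 groups of 4 pools (10 members in 2 genotypes), the distance of the highest or lowest pool to the next was divided by the range of its group and compared with Dixon's 95% critical value. It was larger in 3 groups, where chance gives about 1 in 20. All 3 were POMC-C451Af/f replicate 2. *Ptgds* was at 974 CPM in this pool and between 280.3 and 366 CPM in the other 3 POMC-C451Af/f pools (gap 0.876). *Igf2* was at 103.5 CPM against 36.8 to 45.2 CPM (gap 0.874), and *Slc6a13* at 13.9 CPM against 3.88 to 5.43 CPM (gap 0.845). These genes vary together, so the 3 are not separate observations. Control replicates 1 and 3 had *Ptgds* at 869 and 1104 CPM. The cause was not tested.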

How the results depend on the processing

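None of the 10 members was called under any of the 15 alternatives, each pool left out in turn, DESeq2 and the FDR alone included. At an unadjusted p under 0.05, edgeR found 2 members without POMC-C451Af/f replicate 2, *Ptgds* and *Slc6a13*, and 0 under the other alternatives. The number of genes called over the whole table was 4; it was 13 with DESeq2, 2 with at least 10 counts in every pool and 4 to 5 with a pool left out. With the replicate number as a block (replicate block) it was 2. Deviations of same-numbered pools from their genotype means correlated at 0.141, -0.18, -0.11 and 0.243 over genes, not all above 0.1. The replicate number was not used as a pairing in the main fit, and whether same-numbered pools shared a batch was not tested.

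Of 140 log2 fold changes of members under alternatives, 127 were below 0. *Lum* turned to 0.057 with the replicate block. With each pool left out in turn, *Col1a1* ranged from -0.22 to 0.084, *Col3a1* from -0.46 to 0.078, *Dcn* from -0.36 to 0.0032 and *Lum* from -0.23 to 0.21, so that their sign is not determined. The other 6 stayed below 0, *Ptgds* between -1.11 and -0.13, *Slc6a13* between -1.13 and -0.14, *Aldh1a2* between -1.09 and -0.17, *Igf2* between -0.86 and -0.021, *Col1a2* between -0.49 and -0.07, and *Foxc1* between -0.33 and -0.0088. The estimates of these 6 over all pools were each smaller than or close to the standard error, so their sign is not determined either. The values farthest below 0 came without POMC-C451Af/f replicate 2, except for *Lum* (without control replicate 2). The cause was not tested. Total counts in place of TMM moved the median of all genes to -0.0077.

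Of the 45 pairs of members, 38 passed, 35 as deviations from the genotype means, 38 with total counts and between 30 (without control replicate 3) and 42 (without control replicate 2) with a pool left out. With 4 pools in a genotype, differences of the size seen in *Ptgds* are within the standard error.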
